A study of Mus musculus with 4 samples.

Results

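The account concerns the library of untreated, wild-type RAW 264.7 cells, 1 of the 4 libraries of the series. RAW 264.7 is a mouse macrophage line that was derived from a tumour induced by Abelson leukaemia virus in a male BALB/c mouse. It grows attached to plastic and engulfs particles. The study sequenced polyadenylated RNA from this line, wild-type or Hnrnpul1-/-, in cells that were left untreated or given lipopolysaccharide (LPS), a component of the bacterial outer membrane. LPS was used at 100 ng/ml for 10 h, and each of the 4 groups held 1 library, so no spread between cultures can be given for any value. The labels do not say how the knockout cells were derived, and only the wild-type cells without LPS are described below. Hnrnpul1, which encodes an RNA-binding protein of the nucleus and is the gene disrupted in the knockout cells, had 29.8 FPKM (5086 reads, 29 to 30.7) in this library.

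All 22046 protein-coding genes of the 54532 genes in the deposited table were ranked by their deposited FPKM within this library. FPKM is the read count of a gene divided by its exon length and by a measure of library size, so levels of different genes can be set side by side within the library. The library held 17162124 reads assigned to genes, within the 17045432 to 17909549 reads of the 4 libraries, and 97.4% of them lay in protein-coding genes. Intervals given with FPKM values are exact 95% Poisson intervals of the read count. They cover counting error only, and without molecular identifiers a molecule copied by PCR can be counted more than once. For a gene with 0 reads, 3 reads were taken as the limit that such a count allows. Parentheses after an FPKM value hold the reads and this interval. In RNA from a whole culture, a low level in every cell and a higher level in few cells cannot be told apart. Besides the ranking, 48 lists of genes that are known from macrophages or from other cell types were read out. They name 1211 different genes of the table.

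Macrophages recognise microbes and dying cells with receptors on the surface, in endosomes and in the cytosol. Toll-like receptors (TLRs), C-type lectins and scavenger receptors act at membranes, whereas NOD-like receptors and nucleic acid sensors act in the cytosol. The identity of the cell is held by the transcription factor PU.1, which the gene Spi1 encodes and which binds purine-rich DNA with a GGAA core, and growth and survival depend on signals of the receptor for macrophage colony-stimulating factor, encoded by Csf1r. RAW 264.7 cells are widely used to study LPS responses and, after addition of the cytokine RANKL, the formation of osteoclasts, the cells that resorb bone.

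A gene was called expressed at an FPKM of 1 or more. By this rule 9343 protein-coding genes were expressed, 42.4% of those ranked. FPKM values of 10 or more were reached by 4430 genes (20.1%), values of 100 or more by 382 genes (1.73%) and values of 1000 or more by 15 genes. At the other end, 9467 genes (42.9%) had 0 reads, and 3236 genes had reads but an FPKM below 1. The shares of expressed members given for the gene lists below are to be read against the 42.4%, and counts of members with 0 reads against the 42.9%. With 1 library no list was tested against either. The median FPKM was 0.0938 over all protein-coding genes and 9.25 over the expressed ones. The 10 most abundant genes held 10.0% of the summed protein-coding FPKM, the top 100 held 29.2% and the top 500 held 51.4%. At this depth 3 reads correspond to a median of 0.0445 FPKM, so most genes could be followed to far below the expression threshold.

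**Figure D1:**
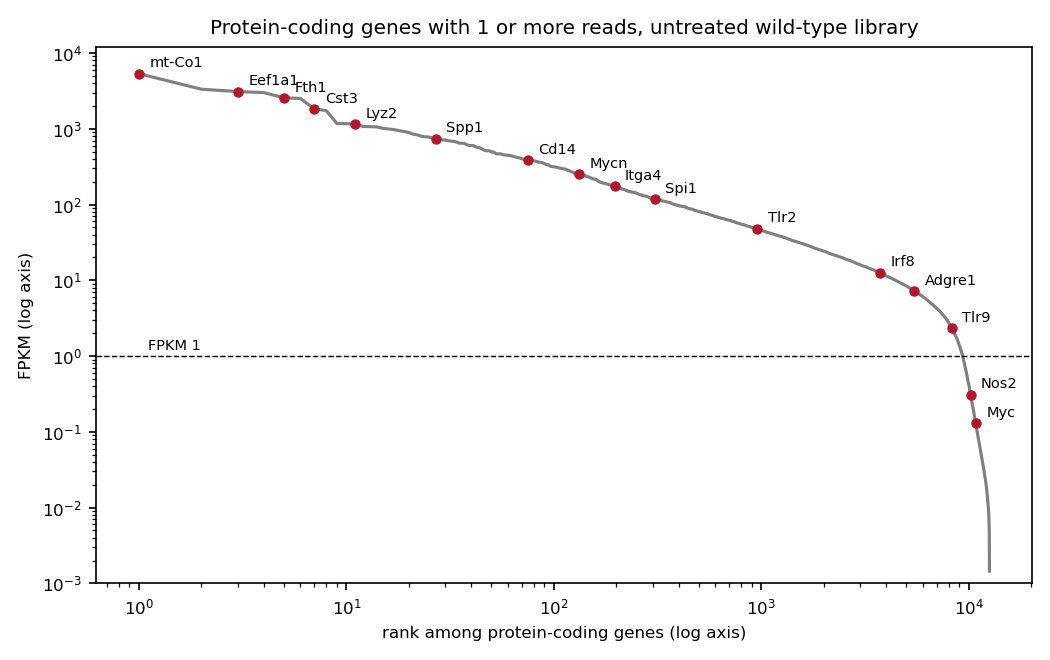
FPKM of each protein-coding gene with 1 or more reads (vertical log axis) against its rank in the untreated wild-type library (horizontal log axis), with named genes as red points and FPKM 1 as a dashed line. The curve falls from mt-Co1 at 5333 FPKM through Spi1 at 118 FPKM to Tlr9 at 2.36 FPKM, and Nos2 and Myc lie below the threshold.

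The most abundant transcripts came from the mitochondrial genome, the translation machinery and a few genes typical of macrophages. First was mt-Co1, which encodes a core subunit of cytochrome c oxidase, at 5333 FPKM (162360 reads, 5307 to 5359). It lies at position 5328 to 6872 of the mitochondrial genome (GRCm38). The mitochondrial genes mt-Nd1 and mt-Cytb, for subunits of respiratory complexes I and III, had 3326 and 3003 FPKM, and mt-Nd2 and mt-Nd5 were also among the top 30 with 1172 and 711 FPKM. The mitochondrially encoded genes, 13 in all, were expressed without exception, 7 of them were in the top 100, and they held 5.81% of the summed protein-coding FPKM and 2.20% of the protein-coding reads. Eef1a1, which carries aminoacyl-tRNA to the ribosome, was the third gene with 3098 FPKM (152180 reads, 3082 to 3113). The elongation factor Eef2 (777 FPKM) and the translation factor Eif5a (751 FPKM) were in the top 30 as well.

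Ribosomal proteins held the largest share of the gene groups compared. The 85 genes of the cytosolic ribosome held 12.1% of the summed FPKM but 5.69% of the reads, since FPKM divides by length and these transcripts are short. Of these, 81 were expressed and 36 were among the top 100. The highest were Rplp1 (2513 FPKM), Rpl36 (1168 FPKM), Rps3a1 (1073 FPKM), Rps15 (1065 FPKM) and Rpl41 (1013 FPKM), and Rpl8, Rpl4, Rpl32 and Rpl19 were also in the top 30 with 992, 891, 830.3 and 795 FPKM.

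Several genes of this kind read far lower than the rest. Ribosomal protein genes have many processed pseudogenes, which are intronless copies scattered through the genome. For each gene the share of its 31-base stretches that no other annotated gene holds was computed. This share was 51.2% for Rps2, which had 592 reads, while 10 named Rps2 pseudogenes together had 16722 reads. Rps10 had 222 reads beside 3798 reads in its 4 named pseudogenes, and Rpl21 had 141 reads beside 1127 reads in 15. Other low genes had few reads in the copies that were counted. Rpl29 had 46 reads and its 3 named pseudogenes 6, but copies of Rpl29 under other names were not counted, and 55.1% of its stretches are unique. Rpl13a had 961 reads and the 2 other genes with reads that share its stretches 32. Rpl24, with 18 reads and 0.887 FPKM, had 111 reads in the 5 other genes that hold at least 10% of its stretches, a small number beside those of Rps2 and Rps10. Beyond the ribosome, Gapdh, a glycolytic enzyme often used as a reference, had 9.27 FPKM (755 reads, 8.62 to 9.96), and 1 processed pseudogene that holds 21.3% of its stretches, Gm13394, had 13980 reads. Whether these pseudogene reads came from the parent genes was not tested. Over the ribosomal genes as a whole, the 9 genes with under 50% unique stretches had a median of 645 FPKM and the other 76 a median of 276 FPKM. Among the 9 were Rplp1 (24.9% unique), Rps3a1 (23.1%) and Rpl36 (5.95%), which are named above with the highest levels. The rank correlation (Spearman rho) of the unique share was -0.413 with FPKM and -0.146 with reads, which are not divided by length. Whether shared sequence changed any of these levels was not tested. The levels of the genes named above whose copies had many reads are uncertain. For Rpl29 it was not settled how many reads its copies had.

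Outside these groups, the top 30 held genes of stress, metabolism and iron storage together with genes prominent in macrophages. Fth1, the ferritin heavy chain that stores iron, had 2563 FPKM (43732 reads, 2539 to 2587) and was the fifth gene. Ptma, a small acidic protein of proliferating cells, had 1737 FPKM. The chaperone Hsp90ab1 reached 1060 FPKM, and the nucleolar protein Npm1 740.4 FPKM. Actb, cytoplasmic beta-actin, stood at 920.1 FPKM, and the glycolytic enzymes Pkm and Ldha at 974 and 713 FPKM.

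The macrophage-associated genes of the top 30 were Cst3, Lyz2, Mif, Car2, Ifitm3 and Spp1. Cst3, a secreted inhibitor of cysteine proteases, had 1829 FPKM (45617 reads, 1812 to 1845) and lies on chromosome 2 from 148871722 to 148875692 (GRCm38). Lyz2, the lysozyme of macrophages, had 1162 FPKM (30142 reads, 1149 to 1176), whereas Lyz1, its neighbour in the family, had 11 reads. These paralogs share sequence: 67.2% of the stretches of Lyz2 and 65.8% of those of Lyz1 are unique. Mif, a cytokine that many cell types make, had 942 FPKM (13833 reads, 927 to 958). Car2, a carbonic anhydrase that osteoclasts use to acidify bone, had 849 FPKM (40511 reads, 841 to 857). Ifitm3, a membrane protein that restricts virus entry, reached 783 FPKM and Spp1, the secreted phosphoprotein osteopontin, 742 FPKM.

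**Figure D2:**
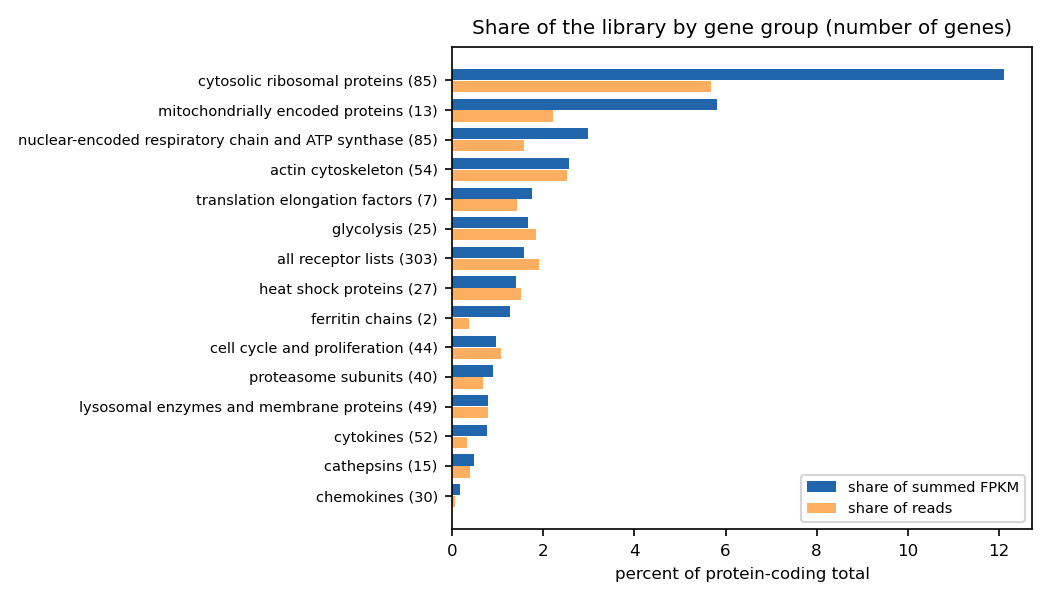
Share of the protein-coding total held by each gene group, as percent of summed FPKM (blue) and as percent of reads (orange), with the number of protein-coding genes in parentheses. Ribosomal proteins hold 12.1% by FPKM and 5.69% by reads, and all receptor lists together hold 1.58% by FPKM.

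Beyond the ribosome, the nuclear-encoded subunits of the respiratory chain and ATP synthase held 2.99% of the summed FPKM over 85 genes, of which 79 were expressed. The actin cytoskeleton list held 2.55%. By reads these shares were 1.58% and 2.53%, so the actin list then stood above both the mitochondrially encoded and the nuclear-encoded respiratory genes. In the actin list 47 of 54 genes were expressed and 45 were at 10 FPKM or more, against 20.1% of all protein-coding genes at that level. Its leading genes after Actb were the actin-severing Cfl1 (577 FPKM), profilin Pfn1 (449 FPKM) and Arhgdia (409 FPKM), an inhibitor of small GTPases. The leukocyte genes Coro1a (204 FPKM), Lcp1 (140.5 FPKM) and Rac2 (137 FPKM) were high in this list. Marcks, an actin-binding substrate of protein kinase C, had 0 reads, with a limit of 0.0376 FPKM and 99.4% unique stretches. Its relative Marcksl1 had 18.7 FPKM (590 reads, 17.2 to 20.2).

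Most genes of the pan-macrophage list were expressed. Of 30 pan-macrophage genes, 21 were expressed (70%, against 42.4% of all protein-coding genes), and their median over all 30 was 50.4 FPKM against 0.0938. After Lyz2, the highest was Cd14, the surface protein that hands LPS to TLR4, with 389 FPKM (12058 reads, 382 to 396). Tyrobp and Fcer1g, adaptors that carry activating motifs for many receptors, had 387 and 112 FPKM. Csf1r had 155 FPKM (14959 reads, 153 to 158), its 14959 reads being the largest count in the list after those of Lyz2 and Gpnmb (15765). The lysosomal glycoprotein Cd68 stood at 147 FPKM, Cx3cr1, the fractalkine receptor, at 95 FPKM, and the pore-forming Mpeg1 at 78.7 FPKM. The classical surface markers F4/80 and CD11b were lower: Adgre1 had 7.24 FPKM (462 reads, 6.6 to 7.93) and Itgam 4.22 FPKM (418 reads, 3.83 to 4.65). Of the markers set down for a macrophage (Csf1r, Adgre1, Itgam, Cd68, Cd14, Fcgr1, Lyz2, Spi1, Tyrobp and Mpeg1), each was expressed.

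Other defining genes of macrophages were not read. The genes Mrc1, Mertk, Cd163, Siglec1, C1qa, C1qb and C1qc had 0 reads. Mrc1 encodes the mannose receptor, Mertk a receptor for apoptotic cells, Cd163 the receptor for haemoglobin bound to haptoglobin, and Siglec1 the sialoadhesin of tissue macrophages. C1qa, C1qb and C1qc, neighbours on chromosome 4, encode the 3 chains of complement C1q, which most tissue macrophages secrete. Each of these 7 genes had at least 98.3% unique stretches and no exon overlap with another gene, and their limits lay between 0.0213 FPKM for Siglec1 and 0.146 FPKM for C1qa. Msr1, the class A scavenger receptor, and Aif1, also called Iba1, were not at 0 but had 10 reads each, at 0.080 and 0.331 FPKM.

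The promoters of expressed and unread genes can be set side by side. The 120 bases before the start site of Cd53, a leukocyte tetraspanin of the immunoreceptor list with 106 FPKM, of Trem2, a lipid-sensing receptor with 43.6 FPKM, and of Mrc1 and C1qb, with 0 reads each, are shown because all of them hold the letters GAGGAA or the reverse complement TTCCTC (in capitals), a purine-rich hexamer with the GGAA core that PU.1 recognises. The sequences are from RefSeq on GRCm38.p6, 5′ to 3′ on the strand of the gene, at chr3:106790150-106790269 (minus strand), chr17:48346281-48346400 (plus strand), chr2:14229294-14229413 (plus strand) and chr4:136886201-136886320 (minus strand).
Cd53: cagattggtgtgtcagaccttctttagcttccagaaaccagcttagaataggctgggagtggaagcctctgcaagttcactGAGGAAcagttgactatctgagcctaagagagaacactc
Trem2: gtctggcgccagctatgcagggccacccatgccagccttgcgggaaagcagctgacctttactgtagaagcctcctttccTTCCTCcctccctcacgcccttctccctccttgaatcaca
Mrc1: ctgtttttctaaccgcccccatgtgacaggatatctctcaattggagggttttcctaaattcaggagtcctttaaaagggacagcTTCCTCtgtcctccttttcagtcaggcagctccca
C1qb: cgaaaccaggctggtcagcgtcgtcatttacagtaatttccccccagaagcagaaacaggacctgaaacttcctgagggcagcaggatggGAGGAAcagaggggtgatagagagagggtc
In the 250 bases before the start site, searched on both strands, 6 of the 14 expressed pan-macrophage genes with a RefSeq window and 3 of the 5 with 0 reads held the hexamer, against 22.2% of the 16506 protein-coding genes with a window. The match is a description of the letters and not of binding, and neither number is large enough to tell the groups apart. In the immunoreceptor list 10 of 15 expressed genes and 0 of 3 with 0 reads held it, and among cytokines 8 of 13 expressed genes and 3 of 15 with 0 reads. The same counts were 2 of 3 and 2 of 4 for TLRs, and 4 of 9 and 3 of 8 for scavenger receptors. They were 1 of 2 and 5 of 14 for chemokines, and 13 of 40 and 0 of 1 for lysosomal genes. Among these lists, only the pan-macrophage one had a lower share in expressed genes than at 0 reads, and several rest on few windows. None of these counts was tested. Over all protein-coding genes the share with the hexamer was 21.5% at 0 reads and 22.7% at 100 FPKM or more. Base composition did differ by abundance over all windows. The median ratio of observed to expected CpG was 0.242 at 0 reads and 0.465 in genes with reads below 1 FPKM. It was 0.747 from 1 to 10 FPKM, 0.792 from 10 to 100 FPKM and 0.777 at 100 FPKM or more. Expressed genes had 0.622 in the lysosomal list, but 0.273 in the pan-macrophage list (0.220 at 0 reads) and 0.202 in the immunoreceptor list. Of the lists compared, only the chemokines had a lower ratio in expressed genes (0.162, 2 windows) than at 0 reads (0.228). The letters TATAAA or TTTATA were found in 19.9% of windows of genes with 0 reads and in 9.76% below 1 FPKM. From 1 to 10, 10 to 100 and 100 or more FPKM the shares were 5.45%, 5.32% and 7.56%.

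Most markers of other cell types were below the threshold or unread, while a few were well above it. Of 152 genes that mark T, B and NK cells, neutrophils, mast cells, erythroid cells, dendritic cells, fibroblasts, endothelium, epithelium, hepatocytes or neurons, 13 were expressed and 98 had 0 reads. The shares over all protein-coding genes were 42.4% expressed and 42.9% with 0 reads. The protein-coding genes among the 152 held 0.114% of the protein-coding FPKM. The defining genes Cd3d, Cd3e, Cd3g, Cd4 and Cd8a of T cells, Ms4a1 and Pax5 of B cells, S100a8, S100a9 and Elane of neutrophils, Hba-a1 and Hbb-bs of red cells and Col1a1, Col1a2 and Dcn of fibroblasts had 0 reads. Of the 13, the highest of the B cell list was Ighm, the constant region of the immunoglobulin mu heavy chain, with 71.1 FPKM (2641 reads). It is not classed as protein-coding, so it is outside the ranking and the share above. Several of the others are known from macrophages or dividing cells too. They include the transferrin receptor Tfrc (53.7 FPKM), the interferon-induced tetherin Bst2 (106 FPKM), the adhesion protein Cadm1 (24.8 FPKM), Cd24a (39.7 FPKM), the tetraspanin Cd37 (17.7 FPKM) and Csf3r, the G-CSF receptor (11.9 FPKM). Mbp, in which the myelin protein shares a locus with the Golli transcripts of blood cells, had 18.4 FPKM (3042 reads, 17.7 to 19). The T cell kinase Lck was just above the threshold with 1.2 FPKM (69 reads, 0.93 to 1.51).

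**Figure D3:**
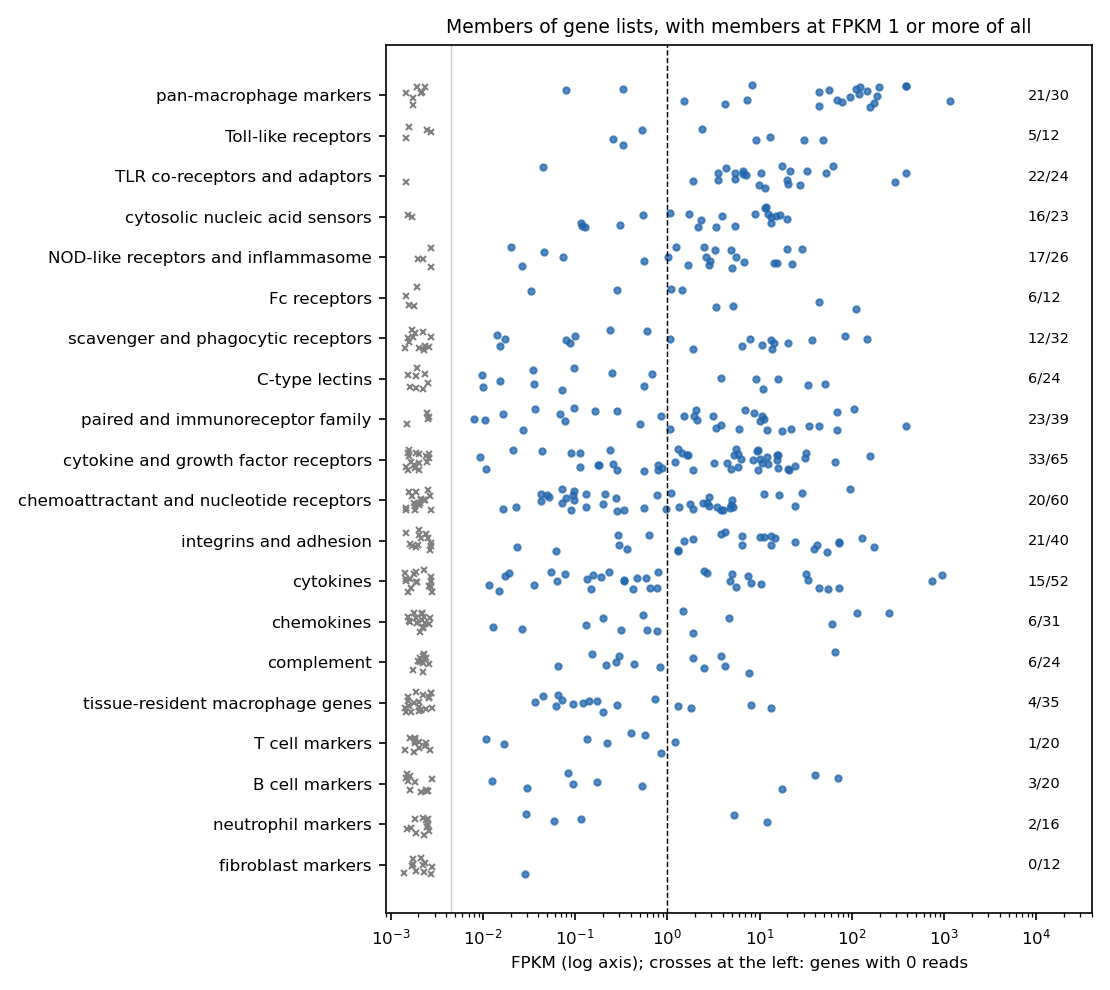
FPKM of every member of 20 gene lists (horizontal log axis), with 1 point per gene, crosses at the left for genes with 0 reads, and the number of members at FPKM 1 or more of all at the right. The pan-macrophage list has 21 of 30 members to the right of the dashed line at FPKM 1, the fibroblast list 0 of 12.

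Among the TLRs, 5 of 12 were expressed (41.7%), close to the 42.4% of all protein-coding genes. In all, 8 of 12 (66.7%) had 10 or more reads, against 48.3% of all protein-coding genes. TLRs are membrane receptors for microbial lipids, proteins and nucleic acids. Tlr2, which senses bacterial lipoproteins, was the highest with 48 FPKM (2851 reads, 46.3 to 49.8). Next were the endosomal receptors Tlr7, for single-stranded RNA, with 30.6 FPKM (2461 reads, 29.4 to 31.8), and Tlr13, for bacterial ribosomal RNA, with 12.9 FPKM (1091 reads, 12.1 to 13.7). The intervals of these 3 receptors do not overlap. Tlr4, the receptor for LPS, had 9.07 FPKM (993 reads, 8.51 to 9.65), and Tlr9, for unmethylated CpG DNA, 2.36 FPKM (162 reads, 2.01 to 2.76). The partners of Tlr2 were low: Tlr6 had 0.531 FPKM (39 reads, 0.378 to 0.726) and Tlr1 0.258 FPKM (17 reads, 0.15 to 0.413), with intervals that overlap. Tlr3, for double-stranded RNA, had 0.331 FPKM (34 reads). Tlr5, Tlr8, Tlr11 and Tlr12 had 0 reads.

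Of 24 genes for co-receptors and adaptors of TLRs, 22 were expressed (91.7%). On the side of LPS recognition, Cd14 at 389 FPKM and Tlr4 at 9.07 FPKM contrasted with Ly96, the MD-2 chain that binds the lipid, at 3.53 FPKM (71 reads, 2.76 to 4.45), and Lbp, the serum protein that liver cells make, had 0 reads. The homologous pair Cd180 and Ly86 had 21.5 and 52.4 FPKM. Unc93b1, which escorts nucleic-acid-sensing TLRs to endosomes, had 61.6 FPKM, and the chaperones Hsp90b1 and Cnpy3, which TLRs need for folding, had 296 and 27.1 FPKM. The adaptors ran in the order Myd88 (32.9 FPKM), Ticam1 (6.58 FPKM), Tirap (5.36 FPKM) and Ticam2 (3.5 FPKM). Irak1 (20.2 FPKM) lay above Irak2 (6.57 FPKM), Irak4 (4.31 FPKM) and the inhibitory Irak3 (1.89 FPKM). Sarm1 had 5 reads.

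Of 26 genes of NOD-like receptors and inflammasomes, 17 were expressed (65.4%). Gsdmd, the pore former of pyroptosis, had 29 FPKM (1360 reads, 27.5 to 30.6), the protease Casp1 22.5 FPKM (663 reads, 20.8 to 24.3) and Nlrp3 19.7 FPKM (1573 reads, 18.7 to 20.7). Pycard, which encodes ASC, the adaptor that joins NLRP3 to caspase-1, had 2 reads, at 0.0267 FPKM with an interval of 0.00323 to 0.0965. Il1b, the substrate of caspase-1, had 0 reads, with a limit of 0.0798 FPKM, while Il18, the other substrate, had 5.07 FPKM (103 reads, 4.14 to 6.15). The flagellin sensors Naip5 and Naip6 had 1.25 and 1.68 FPKM, and their partner Nlrc4 lay at the threshold with 1.01 FPKM (94 reads, 0.815 to 1.23). Nod2, which senses muramyl dipeptide, had 0.557 FPKM and Nod1 2 reads. Mefv, Nlrp6 and Nlrp12 had 0 reads.

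Among 23 genes of nucleic acid sensing, 16 were expressed (69.6%). The cGAS and STING pair, listed as Mb21d1 and Tmem173, had 16.6 FPKM (1351 reads, 15.7 to 17.5) and 12.2 FPKM (554 reads, 11.2 to 13.3). The DNA sensor Aim2, which also signals through ASC, had 14.9 FPKM. On the RNA side, Mavs, the mitochondrial adaptor, had 8.89 FPKM, whereas the sensors Ddx58 (RIG-I) and Ifih1 (MDA5) had 2.17 and 0.547 FPKM. The kinases Tbk1 and Ikbke had 19.8 and 3.89 FPKM, and the factors they act on, Irf3 and Irf7, 11.5 and 1.08 FPKM. Zbp1, a sensor of Z-form nucleic acid, had 8 reads. Trex1, a DNA exonuclease, was listed at 0 reads, but its exons are overlapped by those of other genes over 100% of their length and 2.42% of its stretches are unique, so its 0 carries no information.

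**Figure D4:**
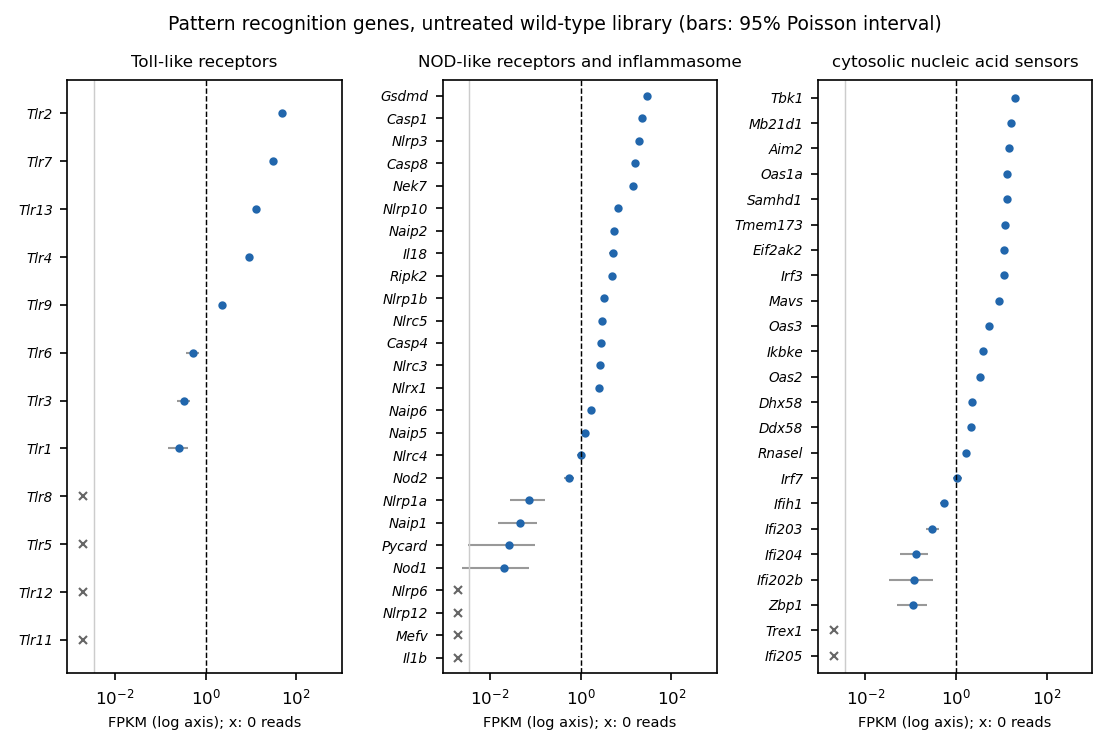
FPKM (horizontal log axis) of the Toll-like receptors, the NOD-like receptor and inflammasome genes and the cytosolic nucleic acid sensors, with bars for the 95% Poisson interval, crosses for 0 reads and a dashed line at FPKM 1. Tlr2, Gsdmd and Tbk1 lead the panels at 48, 29.0 and 19.8 FPKM, and Pycard lies at 0.0267 FPKM.

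Receptors for antibody and for particles were expressed in part. Of 12 Fc receptor genes, 6 were expressed (50%), led by the adaptor Fcer1g and by Fcgr1, the high-affinity IgG receptor, with 44 FPKM (2247 reads, 42.2 to 45.9). The low-affinity receptors were lower, Fcgr3 at 5.09 FPKM (174 reads, 4.36 to 5.9) and the inhibitory Fcgr2b at 3.4 FPKM (388 reads, 3.07 to 3.76), and Fcgr4 had 7 reads. Of 32 scavenger and phagocytic receptor genes, 12 were expressed (37.5%) and 12 had 0 reads. Behind Cd68 came Colec12, a collectin that binds oxidised lipid, with 84.6 FPKM, and Lrp1, a large endocytic receptor, with 37.3 FPKM. Marco, Cd36, Timd4, Tyro3 and Itgb3 had 0 reads in addition to the genes named above. Of the TAM kinases that bind dying cells, Mertk and Tyro3 had 0 reads and Axl had 0.605 FPKM (60 reads, 0.462 to 0.779). Their ligands Pros1 and Gas6 had 20.5 and 1.08 FPKM, and Mfge8, which bridges dying cells to integrins, 14.4 FPKM.

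Lectin and immunoglobulin-like receptors bind sugars and surface proteins. Of 24 C-type lectin genes, 6 were expressed (25%), and 8 had between 1 and 9 reads. Clec5a was the highest with 51.5 FPKM (3898 reads, 49.9 to 53.2), followed by Clec4d (33.1 FPKM), Clec12a (15.7 FPKM), Cd302 (10.8 FPKM) and Clec4e, which encodes Mincle (9.16 FPKM). Clec7a, for the beta-glucan receptor Dectin-1, had 29 reads and 0.558 FPKM. The table lists it as a polymorphic pseudogene, so it was not ranked with the protein-coding genes. Clec10a, Clec4n and Mgl2 had 2, 1 and 3 reads. In the list of paired and immunoreceptor genes, 23 of 39 were expressed (59.0%). Sirpa, which reads the CD47 signal of healthy cells, had 68.7 FPKM, Cd52 69.3, Trem2 43.6, Cd300lb 34.3 and Cd33 17.3 FPKM. Trem1, an amplifier of inflammation, lay below the threshold at 0.847 FPKM (50 reads, 0.629 to 1.12).

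Of 65 cytokine and growth factor receptor genes, 33 were expressed (50.8%) and 16 had 0 reads, and in some receptors 1 chain was read without its partner. After Csf1r came the semaphorin and VEGF co-receptor Nrp2 (65.3 FPKM) and the TGF-beta receptor Tgfbr2 (31.5 FPKM). The GM-CSF receptor had both chains, Csf2ra at 30.7 and Csf2rb at 4.91 FPKM. Type I interferon receptors Ifnar1 and Ifnar2 had 9.7 and 15.7 FPKM, and the interferon-gamma receptors Ifngr1 and Ifngr2 had 15.3 and 15.8 FPKM. The IL-18 receptor was represented by its accessory chain Il18rap at 15.4 FPKM (2053 reads, 14.8 to 16.1), while the ligand-binding chain Il18r1 had 2 reads. The IL-1 receptor Il1r1 had 0.175 FPKM and its accessory chain Il1rap lay just below the threshold at 0.871 FPKM (195 reads, 0.753 to 1.0). Il10ra and Il10rb had 1.65 and 4.41 FPKM, and the IL-4 receptor Il4ra 1.31 FPKM. Tnfrsf1a and Tnfrsf1b, for TNF, had 23.9 and 5.8 FPKM, and Tnfrsf11a, the RANK receptor that drives osteoclast formation, 12.5 FPKM (1470 reads, 11.8 to 13.1). Kit, Flt3, Il3ra, Igf1r and Met had 0 reads.

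Of 60 chemoattractant and nucleotide receptor genes, 20 were expressed (33.3%), 17 had 0 reads and 14 had between 1 and 9. Cx3cr1, at 95 FPKM (8436 reads, 93 to 97.1), was the highest, followed by Gpr183, a receptor for oxysterols (28.6 FPKM), the UDP receptor P2ry6 (24.3 FPKM), the fatty acid receptor Gpr84 (16.3 FPKM) and the prostacyclin receptor Ptgir (11.1 FPKM). The complement receptors C5ar1 and C3ar1 had 3.81 and 1.91 FPKM. The CC chemokine receptors Ccr1 and Ccr2, which guide monocytes, were near the limit of counting with 16 and 12 reads. Ccr3 and Ccr7 had 0 reads. The formyl peptide receptors Fpr1 and Fpr2 and the chemerin receptor Cmklr1 also had 0 reads.

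Of 40 integrin and adhesion genes, 21 were expressed (52.5%). Itga4, the alpha chain of VLA-4, had 173 FPKM (47742 reads, 172 to 175), a read count that placed it among the 30 genes with the most reads. Its beta partners Itgb1 and Itgb7 had 42.2 and 3.81 FPKM. The leukocyte beta-2 chain Itgb2 had 38.6 FPKM, above its alpha partners Itgam (4.22 FPKM), Itgal (1.88 FPKM) and Itgax (0.296 FPKM). The integrin activators Tln1 and Fermt3 had 72.6 and 72 FPKM. Itgb3, Itgad and Vcam1 had 0 reads.

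Antigen presentation genes were read in part. Of 21 genes of the MHC class I pathway, 19 were expressed (90.5%) and none had 0 reads. B2m, the light chain, had 388 FPKM (6571 reads, 378 to 397), the heavy chains H2-D1 and H2-K1 75.2 and 14.2 FPKM, and the peptide transporters Tap1 and Tap2 4.15 and 4.82 FPKM. Of 15 class II genes, 6 were expressed, a share (40%) close to the 42.4% of all protein-coding genes. Cd74, the invariant chain, had 136 FPKM (3784 reads, 132 to 141), but H2-Aa, H2-Ab1 and H2-Eb2 had 0 reads, H2-Eb1 had 5, and Ciita, the coactivator that turns on class II genes, had 3. The factors that bind class II promoters with CIITA were present, Rfx5 at 5.15 and Rfxap at 13.6 FPKM, and Rfxank lay just below the threshold at 0.908 FPKM (71 reads, 0.709 to 1.15). Among 18 costimulatory and checkpoint genes, 6 were expressed (33.3%), while 10 (55.6%) had 10 or more reads, against 48.3% of all protein-coding genes. Tnfsf9, the ligand of 4-1BB, had 20.8 FPKM and Cd80 1.01 FPKM (74 reads, 0.796 to 1.27), while Cd86 and Cd40 had 6 reads each and Cd274, for PD-L1, had 0.602 FPKM.

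A small number of cytokine genes were abundant. Of 52 cytokine genes, 15 were expressed (28.8%) and 16 had 0 reads. The count depended on the threshold: 24 (46.2%) had 10 or more reads, against 48.3% of all protein-coding genes, and 23 (44.2%) a TPM of 1 or more, against 46.4%. Behind Mif and Spp1 came the growth factor Grn (73.1 FPKM), Ltb, a membrane TNF relative (54.5 FPKM), and Tnf with 43.7 FPKM (1410 reads, 41.4 to 46). Tgfb1 had 32.2 FPKM, Vegfb 33.4, Pdgfb 10.3 and Igf1 5.49 FPKM. Il1b, Il6, Il10, Il12a, Il12b and Ifnb1 had 0 reads, and Il1a had 3. Tnf and these genes are all known to be induced by LPS in macrophages, and of them only Tnf was above the threshold in the untreated cells. Of 15 cytokine genes with 0 reads that have a promoter window, 9 held TATAAA or its reverse complement, against 19.9% of all windows of genes with 0 reads, and of 13 expressed ones 3 held it. This was not tested.

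Of 31 chemokine genes, 6 were expressed (19.4%) and 17 had 0 reads. A TPM of 1 or more was reached by 10 (32.3%), against 46.4% of all protein-coding genes. Ccl3 and Ccl4, neighbouring genes for inflammatory chemokines on chromosome 11, had 254 FPKM (3840 reads, 246 to 263) and 114 FPKM (1486 reads, 109 to 120.2), and Ccl9 had 61.3 FPKM (3676 reads, 59.3 to 63.3). Ccl2, the main attractant of monocytes, had 4.68 FPKM (105 reads, 3.83 to 5.67) and Ccl5 28 reads. Cxcl2 and Cxcl10 had 22 and 9 reads, and Cxcl1, Cxcl9, Cxcl12, Cxcl13 and Pf4 had 0. In the complement list 6 of 24 genes were expressed (25%) and 12 (50%) had 10 or more reads, against 48.3% of all protein-coding genes. The complement list was led by Cfp, which encodes properdin, at 65.7 FPKM (2249 reads, 63.1 to 68.5), while C3 had 0.829 FPKM and Cfb, C6 and Cfd had 0 reads. Exon overlap over 79.5% of Cfb makes its 0 hard to read.

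Among the lists of macrophage biology, that of the lysosome had the highest share of expressed members. Of 49 genes, 48 were expressed (98%), with a median of 16.1 FPKM, and Lamp5 alone had 0 reads. Lamp1 had 335 FPKM, the saposin precursor Psap 191, the acid lipase Lipa 119 and the hexosaminidase chain Hexa 81.6 FPKM. Of 15 cathepsins, 9 were expressed (60%). Ctsz led with 376 FPKM (10670 reads, 369 to 383), followed by Ctss (198 FPKM), Ctsb (192 FPKM), Ctsd (162 FPKM) and the asparaginyl endopeptidase Lgmn (117 FPKM). Ctsc, which activates granule proteases, had 0 reads with a limit of 0.0262 FPKM, and Ctsk, the collagenase of osteoclasts, had 5 reads.

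Among 32 proteases and inhibitors, 12 were expressed (37.5%). Besides Cst3 and Lyz2 these included the urokinase Plau (84.1 FPKM) with its receptor Plaur (10.1 FPKM), and the membrane proteases Adam10 (95 FPKM), Adam8 (45.5 FPKM) and Adam17, which sheds TNF (34.7 FPKM). The matrix metalloproteinases were low throughout: Mmp19 was the highest with 0.661 FPKM, Mmp9 and Mmp12 had 3 and 4 reads, and Mmp14, Mmp13, Mmp8, Mmp7, Mmp3 and Mmp25 had 0. Their inhibitors Timp2 and Timp3 had 0 reads and Timp1 had 2.

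Genes of the oxidative burst were high and the inducible nitric oxide synthase was low. In the list of the NADPH oxidase and antioxidant enzymes 27 of 34 genes were expressed (79.4%). Of the phagocyte oxidase, the subunits given here were Cyba at 203 FPKM (4164 reads, 197 to 209.7), Cybb at 143 FPKM (16400 reads, 141 to 146), Ncf1 at 109 and Ncf4 at 41.8 FPKM. Antioxidant genes were high, among them the thioredoxin Txn1 (362 FPKM), the glutathione peroxidase Gpx1 (227 FPKM), the peroxiredoxin Prdx1 (161 FPKM) and the haem oxygenase Hmox1 (42.8 FPKM). Nqo1 had 4 reads. Nos2, the inducible nitric oxide synthase, had 0.311 FPKM (27 reads, 0.205 to 0.452), Arg1, which competes for arginine, 4 reads, and Ass1, which rebuilds arginine, 2. Ido1 had 0. In this list of arginine and tryptophan enzymes 10 of 23 genes were expressed (43.5%), close to the share of all protein-coding genes, and the polyamine enzymes Srm and Odc1 had 179.7 and 162 FPKM. Acod1, which makes itaconate, was expressed at 2.86 FPKM (148 reads, 2.42 to 3.36).

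Of 24 eicosanoid genes, 13 were expressed (54.2%), and the constitutive enzymes of prostaglandin synthesis lay far above the inducible ones. Pla2g4a, which frees arachidonic acid, had 48.2 FPKM, Ptgs1, for COX-1, 28.7 FPKM (2198 reads, 27.5 to 29.9), and Ptgs2, for the inducible COX-2, 0.299 FPKM (27 reads, 0.197 to 0.435). The intervals of the COX genes did not overlap. Hpgds, the haematopoietic prostaglandin D synthase, had 30.4 FPKM, whereas the inducible prostaglandin E synthase Ptges had 7 reads. The leukotriene enzymes Alox5 and Alox5ap had 19.4 and 36.3 FPKM.

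Of 35 genes of lipid handling, 26 were expressed (74.3%). Scd2, a desaturase, had 173 FPKM and Lpl, the lipoprotein lipase, 132 FPKM (27174 reads, 130.0 to 133). Of cholesterol synthesis, Hmgcs1, Sqle and Cyp51 had 17.4, 20.3 and 21.7 FPKM. The exporters Abcg1 and Abca1 differed, with 28 FPKM against 0.94 FPKM (192 reads, 0.812 to 1.08). Apoe, among the most abundant transcripts of many tissue macrophages, had 6.15 FPKM (259 reads, 5.42 to 6.94) here. It shares no 31-base stretch with another annotated gene.

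Of 25 iron genes, 17 were expressed (68%), with the ferritin chains Fth1 and Ftl1 (2563 and 687 FPKM) far above the transferrin receptor Tfrc, and the exporter Slc40a1, ferroportin, below the threshold at 0.727 FPKM. Slc11a1, the phagosomal transporter NRAMP1, had 1.84 FPKM (134 reads, 1.54 to 2.17). Of 25 glycolysis genes, 23 were expressed (92%), with the lactate exporters Slc16a1 and Slc16a3 at 82.4 and 67 FPKM and the glucose carrier Slc2a1 at 65.1 FPKM. Ldhb had 1 read beside the 46477 reads of Ldha.

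Of the interferon-stimulated and itaconate genes, 10 of 20 were expressed (50%) and 9 more had reads below the threshold. Outside the Ifitm family and Bst2 their levels were low: Isg15 had 7.45 FPKM (111 reads, 6.13 to 8.97), Ifit1 0.439 FPKM and Mx1 and Rsad2 5 and 10 reads.

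Myeloid transcription factors led their list. Of 66 lineage factors, 33 were expressed (50%). Spi1 was the highest with 118 FPKM (6269 reads, 115 to 121). It lies on chromosome 2 from 91082390 to 91115756 (GRCm38). Next were Lyl1 (72.8 FPKM) and its partner Lmo2 (57.2 FPKM), factors of blood stem cells, and Irf5 (64.8 FPKM), a mediator of inflammatory macrophage genes. The C/EBP family gave Cebpb 41.6, Cebpa 13.3, Cebpd 5.3 and Cebpe 5.28 FPKM. Irf8 had 12.6, Tal1 11.9, Fli1 14.1 and Runx1 5.75 FPKM. Maf, a factor that restrains macrophage proliferation, had 0 reads with a limit of 0.0185 FPKM. Tfec, Runx3 and Ets1 also had 0 reads, as had the factors of tissue macrophages Gata6, Spic and Sall1. Erythroid and lymphoid factors Gata1, Pax5, Ebf1 and Tcf7 had 0 reads.

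Of 56 signal-regulated factors, 45 were expressed (80.4%). The highest was Mycn, a proto-oncogene best known from neuroblastoma, with 251 FPKM (16316 reads, 247 to 255), while its relative Myc had 7 reads, at 0.131 FPKM with an interval of 0.0526 to 0.269. They share no 31-base stretch of transcript, so reads of one could not be counted for the other in this way. Their partner Max had 37.3 FPKM. Of the NF-kappaB family, Rela had 20.4, Nfkb2 16.2, Nfkb1 14, Rel 6.3 and Relb 3.59 FPKM, and the inhibitor Nfkbia 59.8 FPKM. The AP-1 genes Junb, Jun and Jund had 47.2, 20.7 and 17.7 FPKM, above Fos (3.8 FPKM) and Fosb (0.0975 FPKM). Atf4 and Xbp1, factors of the stress response, had 119 and 56.2 FPKM. Egr1, an immediate early gene, had 0 reads with a limit of 0.0340 FPKM, while Egr2 and Egr3 had 2.58 and 2.37 FPKM. Stat6 (31.3 FPKM) was the highest STAT of the list, followed by Stat3 (7.7 FPKM), and Stat4 had 0 reads.

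**Figure D5:**
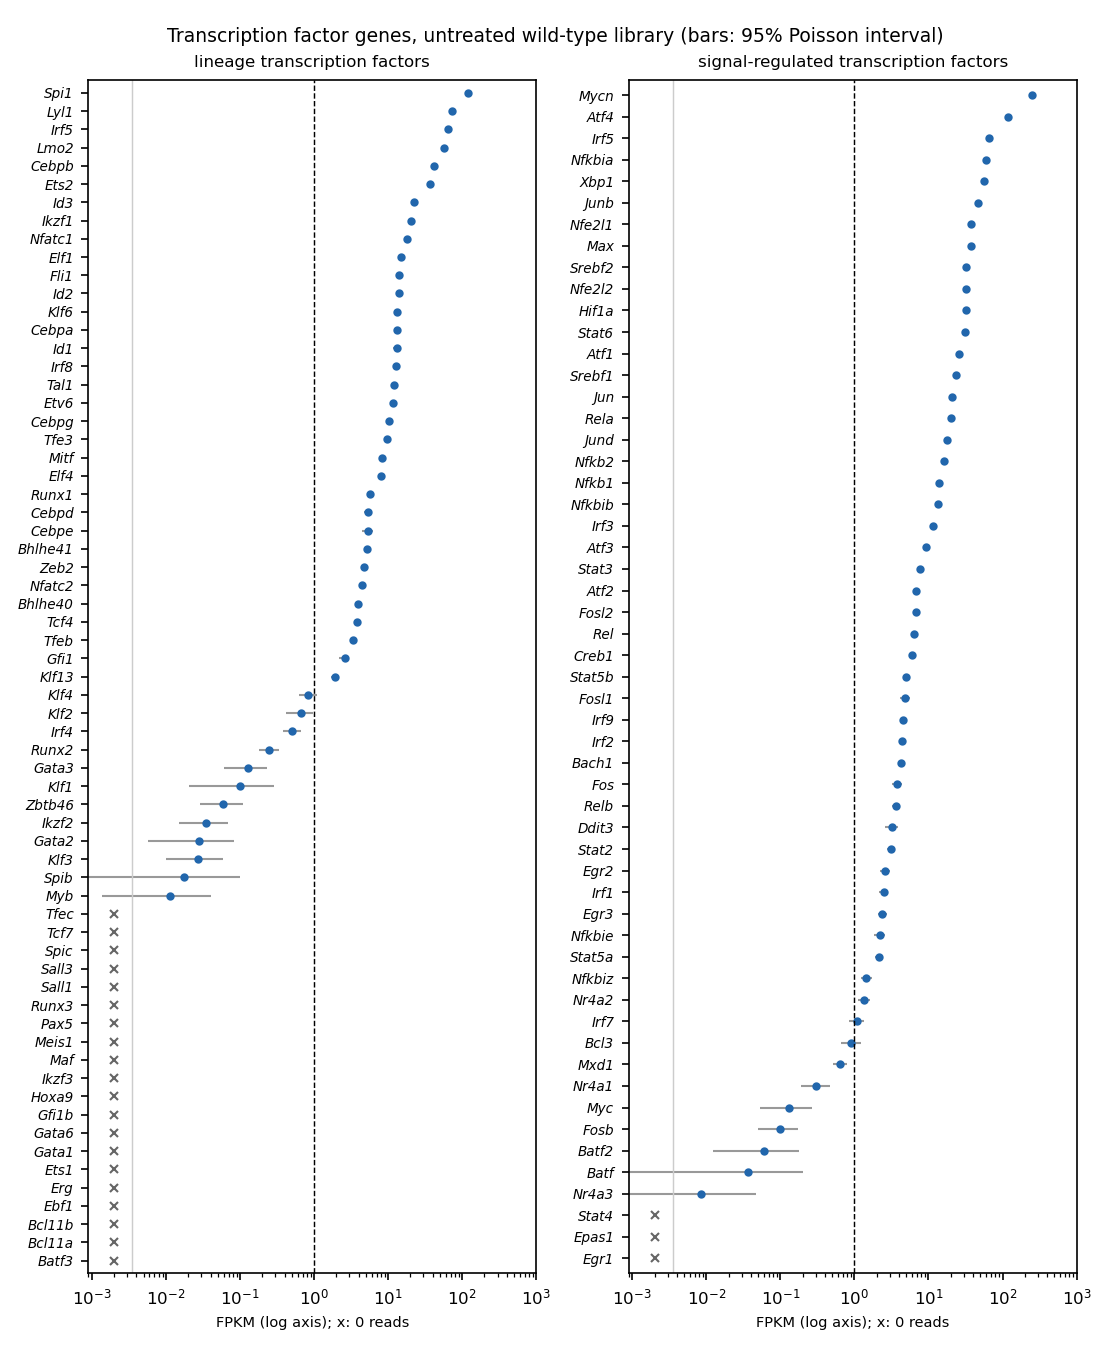
FPKM (horizontal log axis) of lineage transcription factor genes (left) and signal-regulated ones (right), without members that are not reported here, in the untreated wild-type library, with bars for the 95% Poisson interval, crosses for 0 reads and a dashed line at FPKM 1. Spi1 leads the left panel at 118 FPKM and Mycn the right at 251 FPKM, while Myc lies at 0.131 FPKM and 20 lineage factors have 0 reads.

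Nuclear receptors, which sense lipids and hormones, had 17 of 38 genes expressed (44.7%), close to the share of all protein-coding genes, and 15 at 0 reads. Esrra, a regulator of mitochondrial genes, had 28.3 FPKM and the RXR form Rxrb 21.8 against 1.6 for Rxra. The oxysterol receptors Nr1h2 and Nr1h3, LXR-beta and LXR-alpha, had 11.8 and 1.47 FPKM. Rarb had 8.08 FPKM, and the glucocorticoid receptor Nr3c1 7.98 FPKM. Pparg had 0 reads with a limit of 0.0516 FPKM, Vdr 1 read.

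Few genes of tissue-resident macrophages were expressed. Of 35 genes of resident macrophages of brain, liver, lung, spleen or peritoneum, 4 were expressed (11.4%, against 42.4% of all protein-coding genes). Another 12 had reads below the threshold, and 19 had 0 reads, against 42.9% of all protein-coding genes. Among the 19 were Vsig4, Clec4f and Timd4 of liver, Lyve1 of vessel-associated macrophages and Chil3 of lung. P2ry12 of microglia had 10 reads and Tmem119 1.8 FPKM (82 reads, 1.43 to 2.23). In that list 2 genes (5.71%) were at 2 FPKM or more, against 38.6% of all protein-coding genes. There 8 (22.9%) had 10 or more reads, against 48.3%. Of 24 monocyte genes, 7 were expressed (29.2%) and 11 (45.8%) had 10 or more reads, also against 48.3%. S100a10, S100a6, S100a11 and S100a4 stood at 158, 136, 118 and 20.4 FPKM, and Ly6c2, Plac8 and Fn1 at 0 reads. Of 18 osteoclast genes, 10 were expressed (55.6%). Besides Car2 and Tnfrsf11a these were the proton pump subunit Tcirg1 (37.4 FPKM), the master factor Nfatc1 (18 FPKM), the fusion protein Dcstamp (9.47 FPKM) and others that macrophages share. Markers of the mature osteoclast were near the limit, with Acp5 at 1.25 FPKM (50 reads, 0.928 to 1.65), Mmp9 and Ocstamp at 3 reads and 1 read, and Calcr and Itgb3 at 0.

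Genes of cell division were high. Of 44 genes of proliferation, 40 were expressed (90.9%) with a median of 37.4 FPKM. The replication genes Pcna and Mcm5 had 223 and 99 FPKM, the mitotic genes Ccnb2, Plk1 and Aurka 80.8, 57.4 and 53.1 FPKM, and Mki67 76.5 FPKM (15167 reads, 75.3 to 77.7). Of the D-type cyclins, Ccnd1 had 94.5, Ccnd3 7.62 FPKM and Ccnd2 0 reads. Of the cell cycle inhibitors, Cdkn1a had 48.4, Cdkn1b 9.36, Cdkn2c 7.94 and Cdkn2d 14.5 FPKM, and Cdkn2a, Cdkn2b and Cdkn1c had 0 reads. The tumour suppressors Trp53 and Rb1 had 54.7 and 4.13 FPKM.

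In total the lists of macrophage biology name 1029 genes, of which 571 were expressed, 227 had 0 reads and 131 had between 1 and 9 reads. Of all protein-coding genes 42.9% had 0 reads, so a 0 was less frequent in these lists than among all genes. The lists were chosen with earlier results of these data known. They also include genes not particular to macrophages, such as those of glycolysis (23 of 25 expressed) and the actin cytoskeleton (47 of 54). The difference is therefore no result about macrophage genes. Of the 227, 186 had at least 90% unique stretches and under 10% exon overlap, so the files give no such reason for their 0. Another 9 could hardly have been counted, with under 50% unique stretches or over 50% overlap: Apoc2, Cfb, Ear1, Ear2, Igf2, Il4i1, Pilrb1, Sirpb1a and Trex1. Over the 227 genes, 3 reads would have given between 0.00819 and 0.371 FPKM, with a median of 0.0465. A few list members lay so near the threshold that counting error alone could move them across. Just below it were Abca1 (0.940 FPKM) and Ptger4 (0.969 FPKM), and just above it Nlrc4 and Cd80 (1.01 FPKM each) and Cd48 (1.07 FPKM).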

How the data were processed

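Polyadenylated RNA of 4 RAW 264.7 cultures was sequenced, and the untreated wild-type library was used here. The labels' protocols describe capture of mRNA with poly-T beads, fragmentation and cDNA synthesis from random hexamers. Per the submitters' processing notes, CASAVA 1.8, HISAT2 2.0.5 and featureCounts 1.5.0-p3 were used with GRCm38 and mm10. The use of strand in counting and the treatment of reads with several matches are not given in the sources used here, so reads of a gene and of an antisense or overlapping gene may not be separable. The read counts deposited by the authors are whole numbers per gene and not normalized. The FPKM deposited by the authors equal the count divided by the gene length and by a constant, which was 1.15 times the total count of this library. The length is that of all annotated exons merged: it equals the merged exon length of GENCODE M21 for 97.8% of the genes, so genes with long alternative exons read low.

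Protein-coding genes were ranked by deposited FPKM, and a gene was called expressed at 1 or more. Exact 95% Poisson intervals were computed from the counts (Python 3.11.15, SciPy 1.17.1). The computation was checked on counts simulated from the same Poisson model. That check cannot show whether the intervals hold for a real library. The unique share of a gene is the share of its 31-base stretches, on both strands, that no other GENCODE M21 gene holds. Promoter windows of 250 bases are from RefSeq (GRCm38.p6) and matched 16506 protein-coding genes by name. Of these windows, 11111 end where an annotated transcript of the gene opens. With 1 library there is no test and no p-value, and the share of a list that was expressed is read against the share of all protein-coding genes.

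The part of the series described, the lists and the tests were chosen with earlier results of these data known. The rule for named genes took the 30 protein-coding genes with the highest FPKM and, of each list, the top members, those with 0 or under 10 reads, those near the threshold, those with an abundant paralog and those whose role is described. Of the list members, Cd244, H2-L, Hhla2 and Ahsp were not analysed here, and values of a few other members are not reported here. The other libraries entered only with their total counts. Alternatives were other thresholds, total-count FPKM, TPM, read counts in place of FPKM, other gene classes and a stricter meaning of 0 reads.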

Additional observations from a re-analysis of the deposited data

Results flagged for a closer look

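Of the 32486 genes outside the protein-coding ranking, 3034 had more reads than the 3 that a count of 0 allows. Given here are the genes with the highest FPKM of 3 classes, the long intergenic RNAs, the immunoglobulin constant genes and the processed pseudogenes, which were chosen after values had been seen. Malat1, a long nuclear RNA, had 11200 reads and 81.4 FPKM. Ighm, the constant region of the immunoglobulin mu heavy chain, had 2641 reads and 71.1 FPKM. It is 1 of the 13 expressed markers of other cell types. Beside it Ighd had 49 reads and the joining segments Ighj1, Ighj2, Ighj3 and Ighj4 had 39, 42, 25 and 45 reads, whereas Igkc had 0 reads and none of the 218 annotated immunoglobulin variable segments had a read. Gm15772, a processed pseudogene, had 11052 reads and 1280.5 FPKM, above the 1162 FPKM of Lyz2, and 3.43% of its stretches are unique. The pseudogenes Gm8730, Gm13394 and Rps2-ps10 had more reads, 18215, 13980 and 13481. Whether the reads of these pseudogenes came from parent genes was not tested.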

How the results depend on the processing

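The number of expressed protein-coding genes, 9343, lay between 8516 (FPKM of at least 2) and 10652 (at least 10 reads) under the 7 alternatives run, and the number of expressed list members, 637, between 591 and 744 under 5. Ranking by read count in place of FPKM retained 17 of the 30 most abundant genes. Ranking all gene classes retained 26, leaving out mitochondrially encoded genes 25, and ranking by the lower bound of the interval 30. The ribosomal share moved from 12.1% of FPKM to 5.69% of reads, and 14 of 15 gene groups moved in this way. Genes with 0 reads in the macrophage lists numbered 227, those with up to 3 reads 303, and those below 0.1 FPKM 339. By single lists, counts of expressed members moved by over 1.5 times in 11 of 48 lists at 10 reads, in 5 by TPM, in 3 at FPKM 2, in 1 at FPKM 0.5 and in 0 with FPKM from the total count. Among the macrophage lists these were the TLRs, costimulatory genes, cytokines, chemokines, complement, tissue-resident and monocyte genes, and among the lists of other cells those of T cells, B cells, mast cells, erythroid cells, dendritic cells and endothelium. Depth limits genes below about 0.0445 FPKM, the median that 3 reads give. No paired analysis was possible because the result comes from 1 library and no test, and leaving out a replicate was not possible for the same reason.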

Other observations

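Chromosomes differed in the share of expressed protein-coding genes. It was 49.6% on chromosomes 11 and 12, 33.8% on chromosome 7, 28.6% on the X chromosome and 0.546% on the Y chromosome, where 1 of 183 genes was expressed. That gene, Gm47283, had 275 reads and 53.2% unique stretches, so it shares sequence with other genes. Whether its reads came from the Y chromosome was not tested. The 8 Y-linked genes of the lists, among them Ddx3y, Uty, Kdm5d and Eif2s3y, had 0 reads, while the X-linked partners Ddx3x and Eif2s3x had 120.2 and 49.3 FPKM. Xist, the RNA of the inactive X chromosome, had 1 read. The line was derived from a male mouse.

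Within 500000 bases of Cdkn2a on chromosome 4 (GRCm38), Mtap had 2052 reads and 32.3 FPKM. Every other protein-coding gene in that window had 0 reads, namely Cdkn2a, its neighbour Cdkn2b, Dmrta1, and the genes of the type I interferon cluster. These were 22 of the 23 genes of the window, most of them members of that cluster. Of all protein-coding genes 42.9% had 0 reads. Why the genes of the window were unread was not tested. Cdkn2a encodes the cell cycle inhibitor p16 and the p53 regulator ARF.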
